A study of Mus musculus with 82 samples.

Results

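Plasma cells cut out of oil granulomata by laser capture were compared with whole sections of the same kind of tissue, 17 days after pristane, in the first of the study's independent cohorts (study 1). The comparison was chosen by its labels alone: study, day and tissue type. It held 8 of the 82 arrays of the series. Captured plasma cells had 5 arrays from 4 specimens, numbered 3, 4, 11 (2 arrays) and 12. Whole tissue had 3 arrays from only 2 specimens, numbered 10 (2 arrays) and 12. Arrays of 1 specimen number were averaged, so each value below is that of a specimen. Only specimen 12 had both tissue types. All mice of both groups were BALB/c.iMycEμ, aged at least 8 weeks when pristane oil (0.5 ml) was put into the peritoneal cavity. In iMycEμ mice a Myc gene is inserted in the immunoglobulin heavy chain locus, which drives it in B lineage cells, and both groups carried it. Neither mice without the transgene nor mice without pristane enter the comparison. The captured cells were those that took up methyl green pyronin, a stain of RNA-rich plasma cells. The labels call them nascent tumor cells, and the whole sections still contained their plasma cells. RNA of both kinds went through 2 rounds of linear amplification.

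Pristane is a mineral oil that the peritoneum walls off in granulomata of macrophages, fibroblasts and new vessels, on the fat and the gut wall, and in BALB/c mice plasma cell tumors arise in these granulomata. A plasma cell is the last stage of a B cell: the factors Irf4, Prdm1 and Xbp1 shut down the B cell program and enlarge the endoplasmic reticulum (ER), through which the cell secretes antibody. Interleukin 6 from the granuloma and the Myc oncogene are known drivers of these tumors, and Myc acts on ribosome production and growth.

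The deposited log2 values had array medians of 5.03 to 5.08 in captured cells and 5.77 to 5.82 in whole tissue. All arrays were therefore set to a shared distribution (quantile normalization, array median 5.68) before the tissues were compared. The 3-prime minus 5-prime difference of the control probe sets, a measure of how short the labelled RNA is, averaged 4.88 ± 0.16 in captured cells (SD, 5 arrays) and 2.80 ± 0.17 in whole tissue (SD, 3 arrays), with no overlap. This RNA measure therefore moved with every difference given here. With the measure as a covariate, 687 genes were higher and 979 lower. Array correlations over all probe sets were 0.980 to 0.993 among captured arrays, 0.989 to 0.997 among whole tissue arrays and 0.919 to 0.955 between them. The 2 captured arrays of number 11 differed from each other more (SD of the difference 0.364) than the arrays of specimens 3 and 4 did (0.282). The female transcript Xist was high and the Y-linked Eif2s3y near the floor in captured specimens 3 and 4 and whole tissue specimen 10, and the reverse held in captured specimens 11 and 12 and whole tissue specimen 12. The labels do not say that each number is a mouse of its own, so the p-values rest on the spread between specimens as numbered. That spread was pooled over all 19 groups of both studies, not taken from these 6 specimens alone.

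Of 8614 genes tested, 2583 were past an adjusted p of 0.05 (limma, Benjamini-Hochberg). Captured cells had 1283 higher genes (14.9%) and 1300 lower genes (15.1%). Of these, 663 and 960 differed at least 2-fold. The decreases reached further than the increases: the furthest lower gene was Actg2 at −6.33 on the log2 scale and the furthest higher gene was Malat1 at 2.88. The captured specimens were all above the whole tissue specimens in 3151 genes (36.6%) and all below them in 2755 (32%). In amplified bulk RNA, a lower value in whole tissue or in captured cells can mean fewer cells of a type or less RNA per cell, and these cannot be told apart. Without whole tissue specimen 12 the counts were 303 higher and 328 lower, and without specimen 10 they were 678 and 790. In both cases 1 specimen stands for whole tissue and is assumed to vary as the other groups do.

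Immunoglobulin transcripts gave 1 call between the tissues. Of 19 immunoglobulin and J chain genes tested, 1 was higher, none lower, and the median difference was 0.07, against 0.04 for all genes tested. The heavy chain genes Igha and Ighm lay at or near the ceiling of the shared scale, whose 2 top levels are 14.47 and 14.57. Igha was at 14.57, 14.57, 14.57 and 14.47 in captured cells, against 14.47 and 14.47 in whole tissue. Ighm was at 14.22, 14.47, 14.35 and 14.57 in captured cells, against 14.57 and 14.57 in whole tissue. Differences at these top ranks cannot show on this scale. Ighg3, the heavy chain of IgG3, lay far below and spread widely, at 7.57, 6.66, 8.32 and 5.52 in captured cells, against 5.72 and 9.88 in whole tissue (difference −0.93, SE 1.42, adjusted p = 0.659). Jchain, the chain that joins secreted IgM and IgA, was at 13.27, 13.16, 13.11 and 12.99 in captured cells, against 12.85 and 12.95 in whole tissue (difference 0.22, SE 0.31, adjusted p = 0.618). Igkv8-30, a kappa variable gene, was at 13.10, 12.93, 12.87 and 13.18 in captured cells, against 12.61 and 12.62 in whole tissue (difference 0.41, SE 0.26, adjusted p = 0.247). These 2 results depended on the scaling. With each array centred on its median, Jchain stood at 1.10 (limma, adjusted p = 0.0379) and Igkv8-30 at 1.23 (adjusted p = 0.0115). That scaling gave 4 higher and no lower of the 19 genes, against 1597 and 1186 of all 8614. With the RNA measure as a covariate, Jchain was at −0.39 and Igkv8-30 at −0.083. Other variable genes differed between specimens of the same tissue. Igkv6-14, also a kappa variable gene, was at 8.57, 9.86, 9.82 and 7.52 in captured cells, against 9.74 and 7.46 in whole tissue (difference 0.30, SE 1.10, adjusted p = 0.869), so it was high in captured specimens 4 and 11 and whole tissue specimen 10 and low in both tissue types of specimen 12. The gene past the threshold was Igll1, a surrogate light chain of early B cells, at 6.66, 6.79, 6.67 and 6.45 in captured cells, against 5.32 and 5.22 in whole tissue (difference 1.36, SE 0.45, adjusted p = 0.0193), and its other probe set stood at 0.33 and did not pass.

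The transcription factors of plasma cells gave 1 call between captured cells and whole tissue in this cohort. Of 8 tested, 1 was higher and none lower, with a median difference of 0.25. Xbp1, which drives the expansion of the ER, was at 12.44, 12.30, 12.29 and 11.97 in captured cells, against 12.30 and 12.24 in whole tissue (difference −0.03, SE 0.24, adjusted p = 0.933), and 1 of its 3 other probe sets passed on its own at 0.93. Irf4, needed to form and keep plasma cells, was at 10.08, 10.17, 9.91 and 9.16 in captured cells, against 10.48 and 9.88 in whole tissue (difference −0.38, SE 0.45, adjusted p = 0.551). Prdm1, the repressor that ends the B cell program, was at 8.19, 7.91, 8.19 and 7.62 in captured cells, against 8.05 and 7.53 in whole tissue (difference 0.17, SE 0.48, adjusted p = 0.823). The captured and whole tissue specimens overlapped for all 3, and captured specimen 12 was the lowest captured specimen for each. Pou2af1, a coactivator of immunoglobulin transcription, was at 11.74, 11.64, 11.51 and 11.41 in captured cells, against 11.56 and 10.99 in whole tissue (difference 0.30, SE 0.33, adjusted p = 0.51). Zbtb20, a zinc finger factor of long-lived plasma cells, was the higher gene, at 9.18, 9.31, 8.90 and 9.08 in captured cells, against 7.81 and 8.02 in whole tissue (difference 1.19, SE 0.46, adjusted p = 0.0465). Its call was lost when any of the 6 specimens was left out (adjusted p up to 0.208, without whole tissue specimen 10), and its 2 other probe sets were at −0.77 and −0.47.

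The list of plasma cell surface and signalling genes held some of the receptors by which these cells are known, and also ER genes. Among the 11 tested, 4 passed as higher and 1 as lower, with a median of 0.40. Of all genes tested, 14.9% were higher and 15.1% lower. Slamf7, a receptor of plasma cells and a myeloma antibody target, was at 8.40, 8.34, 8.29 and 7.33 in captured cells, against 6.45 and 6.46 in whole tissue (difference 1.59, SE 0.35, adjusted p = 0.00093, 3.01-fold). Tnfrsf17, the receptor BCMA for the survival factors APRIL and BAFF, was at 6.57, 6.26, 6.03 and 4.70 in captured cells, against 4.27 and 4.19 in whole tissue (difference 1.59, SE 0.57, adjusted p = 0.0327). Both genes were lowest, among captured specimens, in specimen 12, which still lay above whole tissue. Cxcr4, the receptor that draws plasma cells to Cxcl12, was at 8.44, 8.36, 8.47 and 8.46 in captured cells, against 7.00 and 6.81 in whole tissue (difference 1.53, SE 0.48, adjusted p = 0.014); the captured specimens lay close together. Derl3, an ER degradation gene of secretory cells, was at 10.26, 10.41, 10.04 and 9.20 in captured cells, against 8.86 and 8.58 in whole tissue (difference 1.22, SE 0.42, adjusted p = 0.0264). Sdc1, the proteoglycan CD138 that marks plasma cells, was above whole tissue in all captured specimens but did not pass: it was at 10.30, 9.99, 10.02 and 9.78 in captured cells, against 9.64 and 9.57 in whole tissue (difference 0.40, SE 0.31, adjusted p = 0.344). The lower gene was Cd93, a receptor of plasma cells and also of endothelium and myeloid cells, at 8.04, 8.49, 8.51 and 8.57 in captured cells, against 9.67 and 9.97 in whole tissue (difference −1.41, SE 0.53, adjusted p = 0.0384). The Cd93 call was lost with each array centred on its median and when any captured specimen was left out. The other Cd93 probe set stood at −0.36 and did not pass. Leaving out whole tissue specimen 12, 1 gene of the list was higher, and likewise 1 without specimen 10; in both cases it was Slamf7. Tnfrsf17 lost its call in 8 alternatives, among them each of those specimens (adjusted p = 0.188 without specimen 12).

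**Figure D1:**
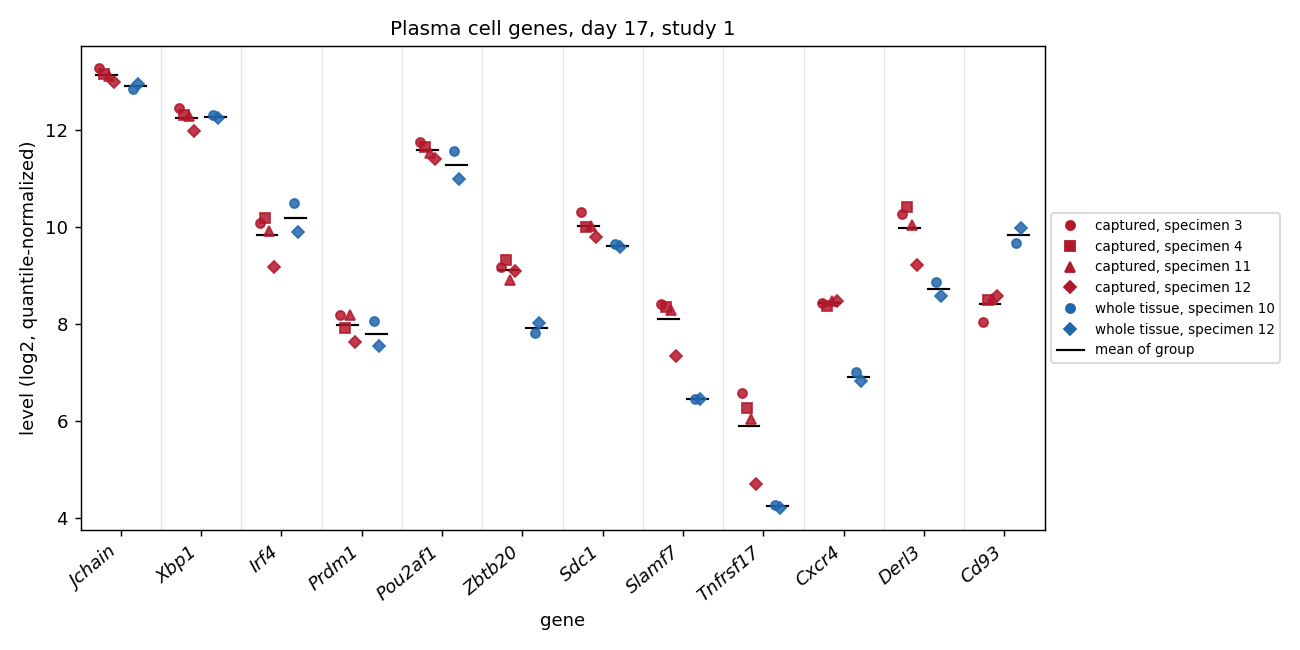
Levels of 12 plasma cell genes in the 4 captured specimens (red, left in each column) and the 2 whole tissue specimens (blue, right) of day 17 of study 1, in log2 after quantile normalization, with the group mean as a black bar. Jchain, Xbp1, Irf4, Prdm1, Pou2af1 and Sdc1 did not pass the test, Slamf7, Tnfrsf17, Cxcr4, Derl3 and Zbtb20 lie higher in captured cells, and Cd93 lies lower.

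The secretory machinery was divided by its steps. Of the ER translocation genes, which bring nascent chains into the ER, 2 of 20 were higher: Sec63 (1.53), a partner of the translocation channel, and Srp68 (0.83), a subunit of the signal recognition particle. Of the ER folding genes 1 of 22 was higher, with a median of 0.05. This was Sdf2l1, a cofactor of ER chaperones, at 10.83, 10.36, 10.36 and 9.39 in captured cells, against 8.93 and 8.56 in whole tissue (difference 1.45, SE 0.52, adjusted p = 0.0326). Captured specimen 12 lay closest to whole tissue for it, and the call was lost without either whole tissue specimen and without captured specimen 3, 4 or 11. Hspa5, the chaperone BiP, was at 13.34, 13.41, 13.15 and 12.97 in captured cells, against 13.06 and 12.78 in whole tissue (difference 0.29, SE 0.36, adjusted p = 0.573), and Canx, the lectin chaperone calnexin, at 11.26, 11.67, 11.59 and 11.50 in captured cells, against 11.85 and 11.73 in whole tissue (difference −0.28, SE 0.52, adjusted p = 0.719). Of the ER stress genes 4 of 19 were higher: Syvn1 (1.38), the ubiquitin ligase of ER degradation, Chac1 (1.37), a target of the Atf4 branch, Ppp1r15a (0.99), which restores translation after stress, and Derl1 (0.63), a channel subunit. Of the glycosylation genes 2 of 15 were higher, Uggt1 (1.15), which tests the fold of glycoproteins, and Dad1 (0.94), a subunit of the oligosaccharyl transferase. Of the vesicle transport genes 2 of 24 were higher, Kdelr2 (1.16), which returns ER proteins, and Copb2 (0.99), a coat subunit. The other probe set of Kdelr2 was at 0.19 and that of Copb2 at −0.61, and neither passed. Both calls were lost with the mean of all probe sets (0.67 for Kdelr2 and 0.19 for Copb2). None of the 100 genes of these lists was lower. Against 14.9% of all genes, the share was larger for the ER stress genes and smaller for the 4 other lists. When whole tissue specimen 12 was left out, none of these lists had a gene past the threshold. Centring each array on its median gave 7 higher translocation, 2 folding, 7 ER stress, 2 glycosylation and 3 vesicle transport genes, and none lower. With the RNA measure as a covariate 1 glycosylation gene and 1 vesicle transport gene were higher, and 1 and 3 genes of these 2 lists were lower.

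Several ER chaperone genes carry the ER stress element, CCAAT and CCACG with 9 bases between them, to which the stress sensor Atf6 is known to bind. The element was searched on both strands in the 250 bases before the start of each gene in the RefSeq promoter table (GRCm38.p6). It was in 37 of 32851 promoters (0.113%) and in the promoters of 8 of the 20 tested ER folding genes that the table holds (Hspa5, Hsp90b1, Calr, Canx, Pdia6, Dnajc3, Creld2 and Ero1b). None of these 8 passed the test here, and the promoter of Sdf2l1 held no such letters in this window. The 3 windows below show the element in capitals for Hspa5, chosen as the best known of these genes, and for Dnajc3 and Canx, which had the highest and the lowest difference of the 8 (0.64 and −0.28); these were chosen after their values were seen. The element starts 65, 105 and 145 bases before the start of Hspa5 (chr2:34772010-34772058, + strand), Dnajc3 (chr14:118937812-118937860, + strand) and Canx (chr11:50325785-50325833, − strand).
Hspa5: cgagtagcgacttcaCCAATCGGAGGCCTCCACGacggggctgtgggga
Dnajc3: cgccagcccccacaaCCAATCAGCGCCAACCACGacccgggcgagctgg
Canx: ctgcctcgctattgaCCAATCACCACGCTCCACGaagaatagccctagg

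Markers of other lymphocytes gave 1 call each. Of 12 B cell genes 1 was higher, Vpreb3 (0.63), a surrogate light chain partner, and none lower (median −0.05). Ms4a1, the B cell antigen CD20, was at 8.77, 9.05, 7.82 and 7.62 in captured cells, against 8.79 and 8.00 in whole tissue (difference −0.11, SE 0.73, adjusted p = 0.933), so captured specimens 3 and 4 stood above specimens 11 and 12 by more than the difference between the tissues. Pax5, the factor of B cell identity, did not reach the level needed for a test. It was at 4.59, 4.51, 4.38 and 4.61 in captured cells, against 4.21 and 4.03 in whole tissue. Of 11 T and NK cell genes 1 was higher, Zap70 (0.89), a kinase of the T cell receptor, with a median of −0.03. The other Zap70 probe set was at 0.17 and did not pass.

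Genes of interleukin 6 and of the BAFF and APRIL system gave calls in both directions. Of 17 tested, 3 were higher and 3 lower, shares near the 14.9% and 15.1% of all genes. Il6ra, the interleukin 6 receptor, was at 7.04, 7.20, 7.05 and 7.09 in captured cells, against 5.60 and 5.47 in whole tissue (difference 1.56, SE 0.44, adjusted p = 0.00678, 2.95-fold), with every captured specimen well above both whole tissue specimens, and another Il6ra probe set passed in the same direction. Il6, the cytokine itself, was at 4.22, 4.57, 3.76 and 4.86 in captured cells, against 5.67 and 5.17 in whole tissue (difference −1.03, SE 0.72, adjusted p = 0.288). Of the kinases that carry the signal, Tyk2 was higher (0.96, SE 0.23) and Jak1 lower (−1.45, SE 0.40). Stat3, the factor they activate, was lower (−0.76, adjusted p = 0.0242), as was the survival gene Bcl2 (−0.77, adjusted p = 0.0248). None of the 6 calls remained without whole tissue specimen 12, and Il6ra stood at 1.50 (adjusted p = 0.103).

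The smooth muscle and fat lists had the lowest medians of all lists. Of 14 smooth muscle contractile genes 13 were lower, with a median of −2.72. Actg2, the actin of gut smooth muscle, was at 3.93, 3.39, 3.54 and 3.44 in captured cells, against 7.89 and 11.78 in whole tissue (difference −6.33, SE 1.25, adjusted p = 0.00025). Myh11, the smooth muscle myosin heavy chain, was at 4.93, 4.26, 4.30 and 4.18 in captured cells, against 8.12 and 10.96 in whole tissue (difference −5.18, SE 0.94, adjusted p = 9e-05). The other Myh11 probe set was at −0.26 and did not pass, and the mean of its probe sets gave −2.72. Myl9, a myosin light chain, was at 4.80, 4.42, 4.69 and 4.87 in captured cells, against 8.35 and 10.99 in whole tissue (difference −5.01, SE 1.05, adjusted p = 0.00053). Tagln, an actin-binding protein, was at 6.15, 5.68, 5.41 and 6.07 in captured cells, against 8.81 and 11.59 in whole tissue (difference −4.40, SE 0.77, adjusted p = 5.6e-05). In each case the captured levels lay together far below both whole tissue specimens, and whole tissue specimen 12 lay far above specimen 10. The mean over the list was 6.48, 6.25, 6.16 and 6.43 in captured cells, against 8.35 in whole tissue specimen 10 and 10.75 in specimen 12. The size of these differences therefore depended on the whole tissue specimen: without specimen 12 the list median was −1.66, with 2 genes past the threshold, and without specimen 10 it was −3.71, with 13. Actg2 was at −4.32 without specimen 12 (adjusted p = 0.0846) and Myl9 at −3.65 (adjusted p = 0.088).

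Contractile genes are known targets of serum response factor, which binds the CArG box. Letters of the CArG box, whose sequence reads the same on both strands, were in 482 of 32851 RefSeq promoter windows of 250 bases (1.47%) and in the window of 1 of the 11 tested smooth muscle genes that the table holds. That gene was Myl9, where the box (capitals) starts 161 bases before the gene's start, in chr2:156775288-156775327 (GRCm38.p6, + strand).
Myl9: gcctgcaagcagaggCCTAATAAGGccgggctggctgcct

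Of 17 adipocyte genes 13 were lower, with a median of −2.56. Thrsp, a regulator of fat synthesis, was at 5.43, 6.46, 5.19 and 5.50 in captured cells, against 11.58 and 11.64 in whole tissue (difference −5.98, SE 1.29, adjusted p = 0.0007). Scd1, the desaturase of stearoyl-CoA, was at 8.26, 7.64, 6.59 and 7.71 in captured cells, against 13.27 and 13.58 in whole tissue (difference −5.87, SE 0.91, adjusted p = 1.2e-05). Adipoq, the fat hormone adiponectin, was at 7.67, 6.50, 4.73 and 5.94 in captured cells, against 11.10 and 11.53 in whole tissue (difference −5.13, SE 1.37, adjusted p = 0.00463). Cyp2e1, a cytochrome P450 that fat and liver express, was at 6.34, 6.74, 5.75 and 6.42 in captured cells, against 10.40 and 11.82 in whole tissue (difference −4.81, SE 1.29, adjusted p = 0.00498). The whole tissue specimens lay close together for Thrsp and Scd1, unlike the smooth muscle genes, and for Adipoq the captured specimens spread widely. Ces1d, a carboxylesterase of fat that is on no list, was at 4.08, 4.16, 4.19 and 4.35 in captured cells, against 8.67 and 9.35 in whole tissue (difference −4.82, SE 0.65, adjusted p = 1.2e-06). Car3, Fabp4, Lpl and Slc2a4 did not pass, and the first 3 of these were lower in every captured specimen than in whole tissue. Fabp4, which macrophages express as well, was at 10.78, 10.63, 10.56 and 10.78 in captured cells, against 11.73 and 12.02 in whole tissue (difference −1.19, SE 0.59, adjusted p = 0.128). With the RNA measure as a covariate 8 of the 17 were lower, and without whole tissue specimen 12 the count was 3, at a median of −2.48. Within specimen 12, which gave both tissue types, the median of the list was −2.72 for captured minus whole, and that of the smooth muscle list −3.60.

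**Figure D2:**
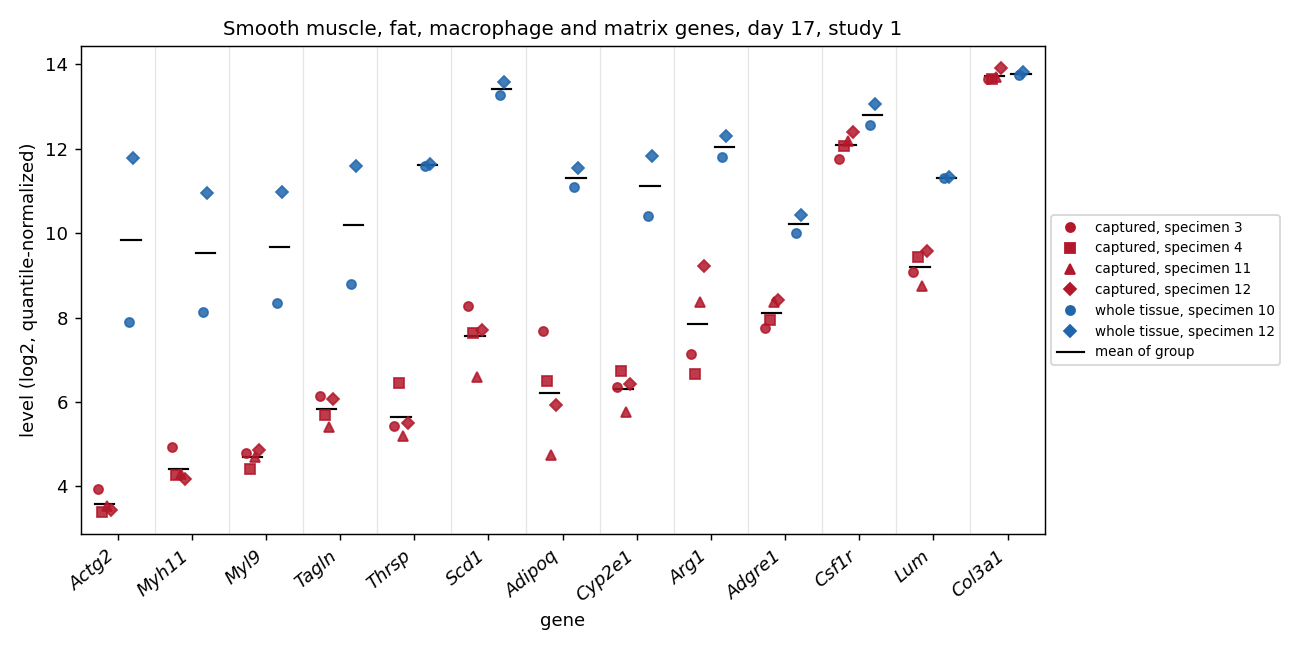
Levels of 13 genes of smooth muscle (Actg2, Myh11, Myl9, Tagln), fat (Thrsp, Scd1, Adipoq, Cyp2e1), macrophages (Arg1, Adgre1, Csf1r) and matrix (Lum, Col3a1) in captured specimens (red, left) and whole tissue specimens (blue, right), in log2 after quantile normalization, with the group mean as a black bar. Smooth muscle genes separate whole tissue specimens 10 and 12, Thrsp and Scd1 do not, and Csf1r and Col3a1, which did not pass the test, are high in both tissues.

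Macrophage genes were the next lower group, but several had a high level in the captured cells too. Of 23 tested, 12 were lower and none higher, with a median of −1.23. Arg1, the arginase of alternatively activated macrophages, was at 7.15, 6.66, 8.36 and 9.21 in captured cells, against 11.79 and 12.29 in whole tissue (difference −4.13, SE 0.84, adjusted p = 0.00036). Retnla, a secreted product of the same state, was at 4.94, 5.19, 5.02 and 4.92 in captured cells, against 7.04 and 8.54 in whole tissue (difference −2.80, SE 0.74, adjusted p = 0.00421). Adgre1, a surface receptor that marks mouse macrophages, was at 7.75, 7.94, 8.37 and 8.41 in captured cells, against 10.01 and 10.42 in whole tissue (difference −2.09, SE 0.40, adjusted p = 0.00017). Cd14, the co-receptor for endotoxin, was at 8.62, 8.21, 8.65 and 9.27 in captured cells, against 10.69 and 11.17 in whole tissue (difference −2.22, SE 0.55, adjusted p = 0.00242). Arg1 and Cd14 were highest, among captured specimens, in specimen 12. Other genes of the list did not pass. Csf1r, the receptor for the macrophage growth factor, was at 11.76, 12.05, 12.18 and 12.39 in captured cells, against 12.56 and 13.05 in whole tissue (difference −0.70, SE 0.57, adjusted p = 0.367). Lyz2, lysozyme, was at 11.95, 12.24, 12.36 and 12.79 in captured cells, against 13.38 and 13.72 in whole tissue (difference −1.20, SE 0.51, adjusted p = 0.0718). C1qb, a chain of complement C1q that macrophages make, was at 10.78, 10.88, 10.98 and 10.90 in captured cells, against 10.98 and 10.70 in whole tissue (difference 0.05, SE 0.40, adjusted p = 0.946). Cd68, a lysosomal marker, was at 9.29, 9.77, 9.78 and 10.18 in captured cells, against 10.75 and 10.95 in whole tissue (difference −1.08, SE 0.57, adjusted p = 0.155). The mean level over the list was 8.23, 8.36, 8.61 and 8.98 in captured cells, against 9.84 and 10.07 in whole tissue. None of its defining markers Csf1r, Adgre1 and Cd68 was at the floor in captured cells, and the part of macrophage RNA in the other differences was not tested. Without whole tissue specimen 12 the count of lower genes was 4, and without specimen 10 it was 6.

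Other myeloid and mast cell markers, in short lists, were lower where they passed, against 15.1% lower among all genes. Of 11 neutrophil genes 3 were lower, Lcn2 (−3.07), the iron-binding lipocalin, Mmp9 (−1.42), gelatinase B, and Mpo (−1.04), myeloperoxidase. Lcn2 was at 4.50, 4.16, 4.99 and 5.11 in captured cells, against 8.28 and 7.31 in whole tissue (SE 0.63, adjusted p = 0.00039). Mpo was at 4.72, 4.56, 4.60 and 4.57 in captured cells, against 6.66 and 4.72 in whole tissue, so whole tissue specimen 12 lay at the captured level. Its call was lost without specimen 10 (adjusted p = 0.895). Of 7 dendritic cell genes Irf8 was lower (−1.75), a factor of dendritic cells and macrophages, and its other probe set was at 0.42. Of 5 mast cell and eosinophil genes Kit was lower (−1.70), the stem cell factor receptor, and its other probe set was at 0.03.

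Collagen and fibroblast genes split. Of 21 tested, 5 were lower and none higher, with a median of −0.83. Lum, the collagen-binding proteoglycan lumican, was at 9.07, 9.44, 8.74 and 9.57 in captured cells, against 11.30 and 11.33 in whole tissue (difference −2.09, SE 0.41, adjusted p = 0.00027). Fn1, fibronectin, was at 11.07, 10.85, 11.33 and 12.13 in captured cells, against 12.76 and 13.42 in whole tissue (difference −1.71, SE 0.59, adjusted p = 0.0267). Col6a3, a collagen VI chain, was at 8.15, 9.05, 8.48 and 8.97 in captured cells, against 10.12 and 10.40 in whole tissue (difference −1.58, SE 0.48, adjusted p = 0.0112). Loxl1 (−1.64), a cross-linking oxidase, and Postn (−1.32), periostin, were the other lower genes. Neither of the fibrillar collagens Col3a1 and Col1a1 passed. Col3a1 was at 13.66, 13.66, 13.69 and 13.91 in captured cells, against 13.74 and 13.82 in whole tissue (difference −0.04, SE 0.46, adjusted p = 0.96), and Col1a1 at 10.17, 9.89, 9.37 and 10.64 in captured cells, against 9.71 and 9.37 in whole tissue (difference 0.52, SE 0.61, adjusted p = 0.556). Captured specimen 12 had the highest mean of the list among captured specimens (10.19, against 9.52, 9.71 and 9.51 in captured specimens 3, 4 and 11), near the 10.42 and 10.56 of whole tissue. Of 12 matrix proteases and their inhibitors 3 were lower, Mmp2 (−1.63) and Mmp14 (−1.47), gelatinase A and its membrane-bound activator, and Mmp9. None of these 3 calls remained when either whole tissue specimen was left out.

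Vessel and serosal markers were mostly lower where they passed. Lyve1, the hyaluronan receptor of lymphatic vessels and some macrophages, was at 5.24, 5.19, 5.35 and 6.38 in captured cells, against 9.49 and 9.04 in whole tissue (difference −3.67, SE 0.64, adjusted p = 5.4e-05), and its other probe set passed in the same direction. Tek (−1.34), the angiopoietin receptor, and Emcn (−0.94), an endothelial sialomucin, were lower, and Flt1 (1.32), a VEGF receptor that myeloid cells express too, was higher. That made 3 lower and 1 higher of 15 endothelial and lymphatic genes, against 15.1% lower and 14.9% higher among all genes. The lower count was thus near the share of all genes. Tek and Emcn each lost their call in 9 alternatives, among them the fit with no filter on low values. Flt1 lost its call in 5, and its 2 other probe sets (1.02 and −0.19) did not pass. Of 10 mesothelial genes 3 were lower: Upk3b at 5.93, 5.47, 5.71 and 5.70 in captured cells, against 8.49 and 9.02 in whole tissue (difference −3.06, SE 0.63, adjusted p = 0.00039), an uroplakin of the serosa, Krt19 (−2.48), a keratin, and Bnc1 (−1.44), a zinc finger factor. No pancreatic acinar gene of 10 passed (median −0.55), and neither did the erythroid gene tested, Alas2 (−0.53).

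Every called gene of the complement, cytokine, MHC class II, lipid handling and glycolysis lists was lower in captured cells. Of all genes tested, 15.1% were lower. The complement list lay furthest above that share, and the cytokine, MHC class II and glycolysis lists lay near or under it. Of 13 complement genes 6 were lower. Cfb, factor B of the alternative pathway, was at 7.82, 7.81, 8.23 and 8.08 in captured cells, against 10.60 and 10.63 in whole tissue (difference −2.63, SE 0.44, adjusted p = 3.3e-05). C1s1, a protease of the classical pathway, was at 9.87, 9.71, 9.61 and 9.59 in captured cells, against 11.79 and 11.71 in whole tissue (difference −2.06, SE 0.46, adjusted p = 0.00105). Serping1, its inhibitor, was at 10.43, 10.63, 10.67 and 10.62 in captured cells, against 12.53 and 12.70 in whole tissue (difference −2.03, SE 0.44, adjusted p = 0.00072), and Cd55 (−2.22), C2 (−0.87) and Cfp (−1.14) were the others. Of 23 cytokine and chemokine genes 3 were lower. Il1b, the cytokine of activated macrophages, was at 6.04, 5.36, 5.21 and 6.20 in captured cells, against 8.63 and 8.29 in whole tissue (difference −2.72, SE 0.49, adjusted p = 8.9e-05). Ccl6 (−1.42) and Cxcl16 (−1.16), both chemokines, were the others. Cd74, the invariant chain, was the lower gene of 8 MHC class II genes (−1.63, SE 0.58), at 8.17, 8.32, 8.53 and 8.50 in captured cells, against 9.35 and 10.65 in whole tissue. Of 14 lipid handling genes Cd36 (−2.77), the scavenger receptor, Apoe (−1.77) and the cholesterol exporter Abca1 (−1.50) were lower. The 2 other Abca1 probe sets were at −0.29 and −0.23 and did not pass. Of 13 glycolysis genes Aldoa (−1.36), aldolase, and Pfkfb3 (−1.19), which makes an activator of glycolysis, were lower.

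Interferon response genes separated specimens within both tissues. Of 15 tested, 6 were lower, with a median of −0.92. Oasl2, an antiviral protein, was at 3.82, 3.85, 4.82 and 5.31 in captured cells, against 7.79 and 6.70 in whole tissue (difference −2.73, SE 0.52, adjusted p = 0.00017). Ifit1, an inhibitor of viral translation, was at 4.44, 4.38, 5.29 and 5.38 in captured cells, against 7.94 and 6.51 in whole tissue (difference −2.30, SE 0.63, adjusted p = 0.00598). Captured specimens 11 and 12 were above specimens 3 and 4, and whole tissue specimen 10 was above specimen 12, for both genes. Without specimen 10, 1 gene of the list was lower, and Ifit1 stood at −1.58 (adjusted p = 0.169). Of 16 immediate early genes, which react to handling as well as to growth factors, 4 were lower, Egr2 (−1.79), Klf4 (−1.63), Klf6 (−1.41) and Junb (−1.07), and Egr3 was higher (1.08). Another Klf6 probe set passed in the opposite direction (0.81).

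Genes of the Myc network, of ribosome production and of the cell cycle were higher in captured cells where they passed. Myc itself was at 11.46, 11.13, 11.17 and 10.80 in captured cells, against 10.64 and 10.48 in whole tissue (difference 0.56, SE 0.39, adjusted p = 0.281), with every captured specimen above whole tissue but the test not passed. Of the 9 genes of the Myc network tested 1 was higher, Mxd3, a partner of Max, at 7.46, 7.05, 7.48 and 7.51 in captured cells, against 5.76 and 5.56 in whole tissue (difference 1.73, SE 0.30, adjusted p = 6.3e-05), and its 2 other probe sets were at −0.05 and 0.14. Among the Myc targets and ribosome biogenesis genes, 7 of 27 passed as higher and none as lower, with a median of 0.61. Ppan, a factor of large ribosomal subunit assembly, was at 10.03, 9.98, 10.09 and 9.75 in captured cells, against 8.27 and 7.72 in whole tissue (difference 1.96, SE 0.34, adjusted p = 4.3e-05). Nolc1, a nucleolar phosphoprotein, was at 9.88, 9.89, 10.09 and 9.84 in captured cells, against 8.88 and 8.24 in whole tissue (difference 1.37, SE 0.37, adjusted p = 0.00527). The 2 other Nolc1 probe sets were at −0.11 and 1.00 and did not pass. Gar1, a subunit of the RNA pseudouridylation complex, was at 9.99, 9.82, 9.93 and 9.81 in captured cells, against 8.61 and 8.42 in whole tissue (difference 1.37, SE 0.41, adjusted p = 0.0109). Cad (1.30), the first enzyme of pyrimidine synthesis, Nop56 (1.22), Rrs1 (1.13) and Rrp12 (1.05) were the others. The RNA measure as a covariate left 2 of these 27 genes higher and 1 lower, at a median of 0.14. With it, 687 of all 8614 genes were higher and 979 lower. Of 29 cell cycle genes 5 were higher and none lower, a share near the 14.9% of all genes, with a median of 0.47. With the RNA measure as a covariate 1 was higher, at a median of 0.05. Birc5, survivin, was at 8.63, 8.72, 8.80 and 8.54 in captured cells, against 7.75 and 6.97 in whole tissue (difference 1.32, SE 0.45, adjusted p = 0.024), Cenpa, the centromeric histone, at 9.16, 9.06, 9.18 and 8.77 in captured cells, against 8.04 and 7.56 in whole tissue (difference 1.24, SE 0.37, adjusted p = 0.0108), and Ccne1 (1.08), Mcm3 (1.11) and Rrm1 (0.88) were the others. Mki67, a marker of dividing cells, was at 11.89, 11.84, 11.81 and 11.45 in captured cells, against 11.49 and 11.12 in whole tissue (difference 0.43, SE 0.44, adjusted p = 0.493). On leaving out whole tissue specimen 12, 1 gene of the Myc target list and none of the cell cycle list was higher.

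Mitochondrial ribosomal protein genes gave the largest count of higher genes among the lists: 18 of 62 were higher, against 14.9% of all genes, and none lower, with a median of 0.57. Mrpl33 was at 8.65, 8.70, 8.73 and 8.62 in captured cells, against 6.22 and 5.98 in whole tissue (difference 2.58, SE 0.24, adjusted p = 1.2e-09), and its other probe set at 0.60. Mrpl47 was at 9.66, 9.44, 9.70 and 9.69 in captured cells, against 7.26 and 6.90 in whole tissue (difference 2.55, SE 0.39, adjusted p = 1e-05). Mrps24, of the small subunit, was at 10.82, 10.55, 10.69 and 10.55 in captured cells, against 9.42 and 8.50 in whole tissue (difference 1.70, SE 0.42, adjusted p = 0.00235). All captured specimens were above all whole tissue specimens in 44 of the 62 and below them in 1, against 36.6% and 32% of all genes. Whole tissue specimen 12 had the lower mean of the list (8.05) and specimen 10 the higher (8.45), against 8.86 to 9.02 in captured cells. With the RNA measure as a covariate 6 of the 62 were higher, and without whole tissue specimen 12 the count was 3.

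The furthest increases outside the lists were mixed. Malat1, a nuclear noncoding RNA, was at 13.15, 13.06, 12.95 and 13.59 in captured cells, against 9.91 and 10.73 in whole tissue (difference 2.88, SE 0.60, adjusted p = 0.00051, 7.34-fold), but its 4 other probe sets lay between −0.36 and 1.34 and none passed. Alyref, an mRNA export factor, was at 8.73, 8.46, 8.93 and 8.59 in captured cells, against 6.24 and 5.75 in whole tissue (difference 2.68, SE 0.34, adjusted p = 5e-07). Bcl2l15, a member of the Bcl2 family, was at 7.66, 8.21, 7.86 and 7.53 in captured cells, against 5.39 and 4.96 in whole tissue (difference 2.63, SE 0.43, adjusted p = 2.7e-05). Pet100, an assembly factor of cytochrome oxidase, was at 8.75, 8.72, 8.77 and 8.73 in captured cells, against 6.58 and 5.91 in whole tissue (difference 2.51, SE 0.48, adjusted p = 0.00019), while its other probe set was at −0.42. Tes3-ps, named as a pseudogene (2.74), and Rab26os, named as an antisense transcript (2.73), were the others, and signal from related or opposite-strand transcripts is uncertain for both.

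**Figure D3:**
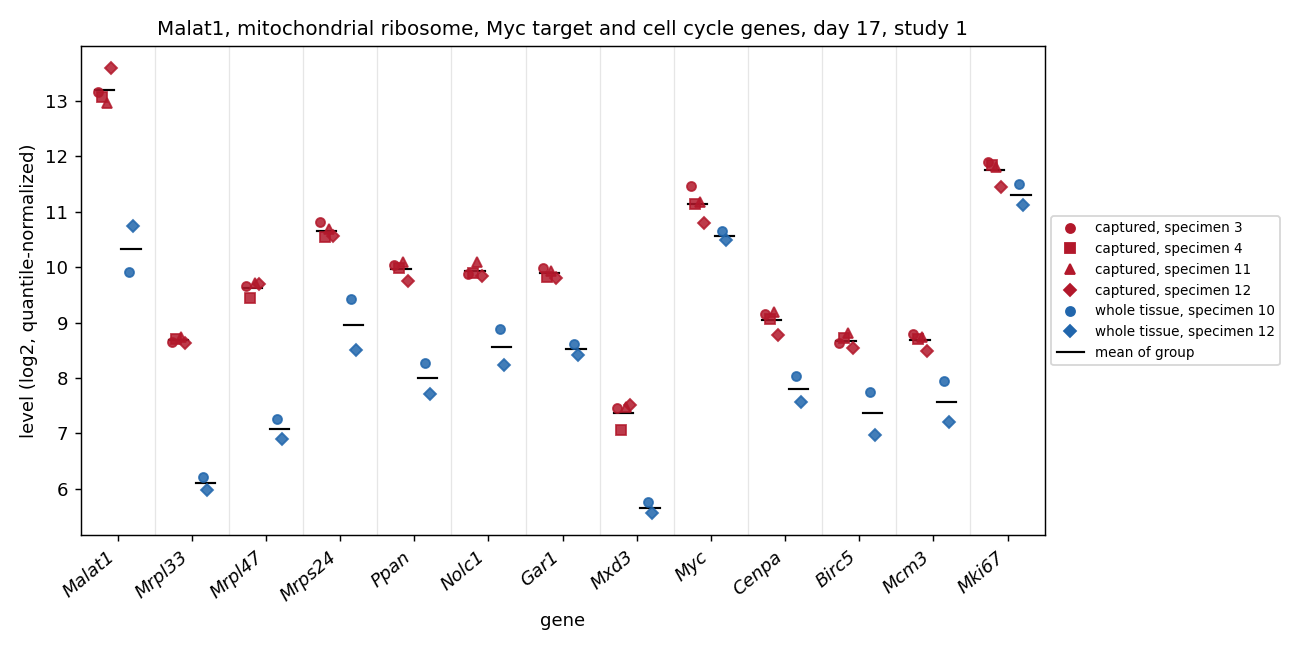
Levels of Malat1, 3 mitochondrial ribosomal protein genes, 3 ribosome biogenesis genes, Mxd3, Myc and 4 cell cycle genes in captured specimens (red, left) and whole tissue specimens (blue, right), in log2 after quantile normalization, with the group mean as a black bar. Captured specimens lie above both whole tissue specimens for every gene shown except Mki67, where captured specimen 12 (11.45) lies below whole tissue specimen 10 (11.49).

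**Figure D4:**
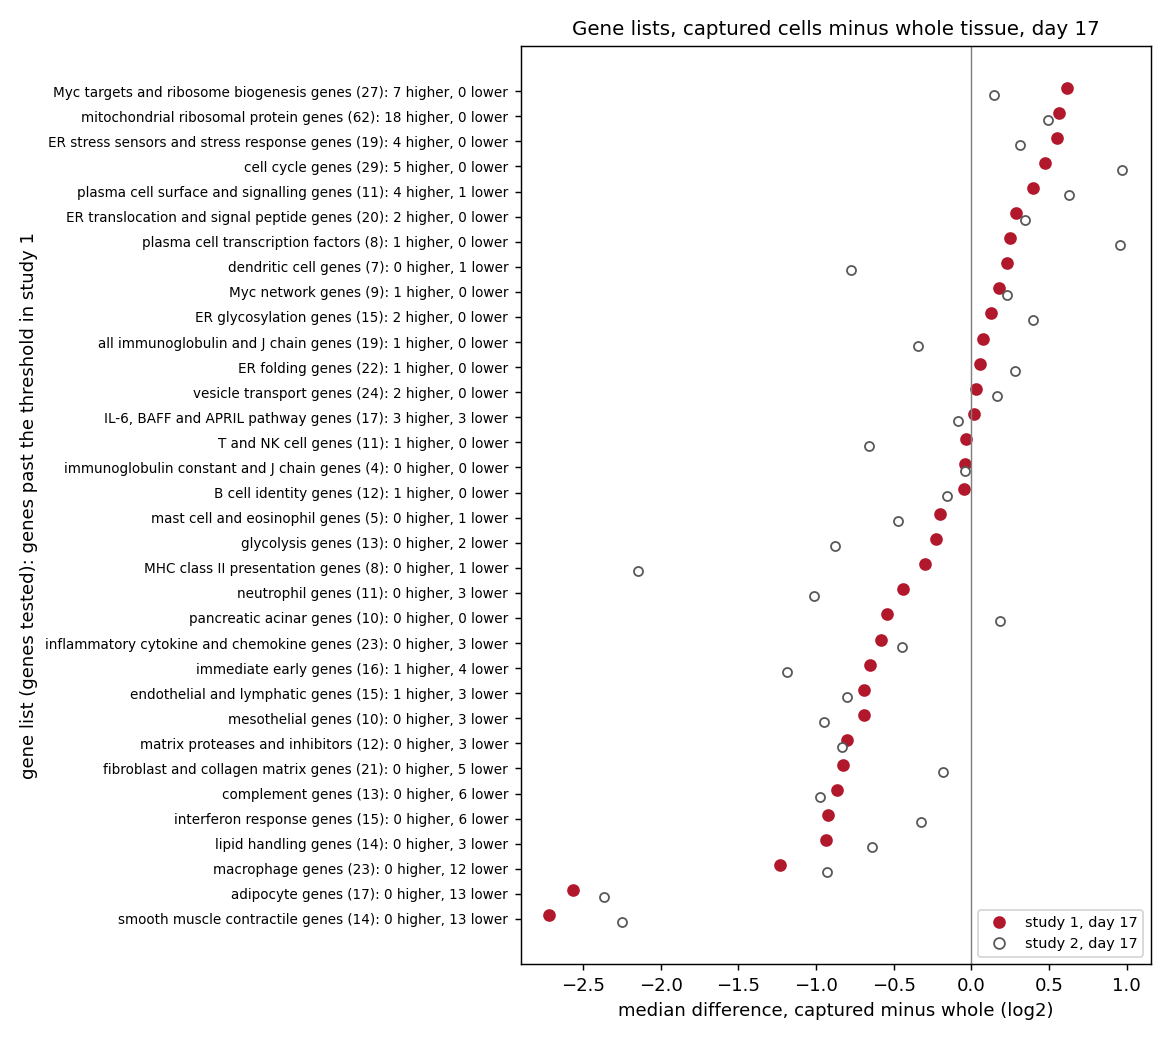
Median difference of the tested genes of each list, captured minus whole in log2, at day 17 in study 1 (red) and in study 2 (open), with the number of genes tested and past the threshold in study 1 beside each list. In study 1 the smooth muscle and adipocyte lists lie lowest and the Myc target and mitochondrial ribosomal lists highest.

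Captured specimens were not equally far from whole tissue. Over the tested genes, the SD of the difference from whole tissue specimen 10 was 0.762 for captured specimen 12 and 0.847 to 0.871 for captured specimens 3, 4 and 11. From whole tissue specimen 12 it was 0.891 for captured specimen 12 and 0.997 to 1.03 for the other three. Specimen 12 therefore lay nearest to whole tissue, both to the section of the same number and to that of specimen 10. Its captured array also carried another date in its title than the other 4 captured arrays, and what the dates mark is not given in the sources used here. Without captured specimen 12 the counts were 1167 higher and 1207 lower, and 1125 and 1151 of these were the genes called with it. The captured specimens 3, 4 and 11 differed from each other by SDs of 0.268 to 0.302.

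The second cohort (study 2) repeated day 17 in mice of the same strain with the same treatment, with 6 captured and 3 whole tissue arrays from 3 specimens, each of which gave both tissue types. There, 1736 genes were higher in captured cells (20.2%) and 1622 lower (18.8%). Of the 1283 higher genes of study 1, 500 (39%) were higher in study 2 too, which is 28.8% of the calls of study 2. Of the 1300 lower genes, 548 (42.2%) were lower in study 2 too, which is 33.8% of its calls. A further 158 genes passed in both studies with opposite signs. Lower in both studies were 12 of the 13 fat genes, 9 of the 13 smooth muscle genes, 6 of the 12 macrophage genes and 4 of the 6 complement genes that were lower in study 1. Past the threshold in the same direction in both were also 4 immediate early genes and 4 of the interleukin 6, BAFF and APRIL list. The same held for 3 plasma cell surface and signalling genes and 2 neutrophil genes. Some lists repeated a smaller share of their calls than the 39% (higher) and 42.2% (lower) of all genes. These were none of the 5 fibroblast and collagen genes, 1 of 6 interferon genes and 1 of 3 lipid handling genes. Others were 2 of 7 Myc targets and none of the 3 ER translocation and folding genes. The cell cycle list (2 of 5) and the mitochondrial ribosomal list (7 of 18) repeated near the 39% of all higher genes. Genes called only in study 2 are not in these counts. There, 15 of 29 cell cycle genes were higher and 1 lower, against 20.2% and 18.8% of all genes. Of 8 plasma cell transcription factors 6 were higher and none lower. Slamf7 (2.17), Tnfrsf17 (1.59), Cxcr4 (1.43), Malat1 (2.98) and Mrpl47 (3.04) were higher in study 2 as well.

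Differences between the cohorts were tested as study 1 minus study 2 in the same fit, and 1460 genes passed (16.9%), 767 of them higher and 693 lower in study 1. Xbp1 was at −0.03 in study 1 and at 0.86 in study 2 (difference between studies −0.89, adjusted p = 0.0476). For Xbp1 the captured cells of the studies differed by 0.00 (adjusted p = 0.991) and whole tissue by 0.90 (adjusted p = 0.0159), study 1 minus study 2. Irf4 (−0.38 and 1.06, adjusted p = 0.0946) and Prdm1 (0.17 and 1.68, adjusted p = 0.1) had the same order but did not pass that test. Il6ra was at 1.56 in study 1 and at −0.09 in study 2 (adjusted p = 0.0481); here captured cells differed between the studies by 1.63 (adjusted p = 0.00171) and whole tissue by −0.02 (adjusted p = 0.986). Ppan was at 1.96 and 0.11 (adjusted p = 0.00424). Mrc1, the mannose receptor of macrophages, was lower in study 1 (−1.23) and higher in study 2 (1.02, adjusted p for the difference 0.00337). Lum was at −2.09 and 0.25 (adjusted p = 0.00337). The largest differences between the studies among genes past the threshold were those of Hnrnpl, a splicing regulator (1.69 and −1.98), Rraga, a GTPase of nutrient sensing (0.65 and −2.96), Pfn1, profilin (0.20 and −3.29), Coq10a, a ubiquinone-binding protein (1.42 and −1.996), and, downward, Ifit1 (−2.30 and 1.35), Plagl1, an imprinted zinc finger gene (−4.23 and −0.64), and Cysltr1, a leukotriene receptor (−2.41 and 1.10). In study 1 the other probe set of Plagl1 was at 0.11 and that of Coq10a at 0.05, and neither passed. The 3-prime minus 5-prime difference was 4.70 ± 0.49 in captured cells (SD, 6 arrays) and 1.68 ± 0.17 in whole tissue (SD, 3 arrays) of study 2, so the gap between the tissues was wider there. With this measure as a covariate, the difference between studies had 895 genes higher and 682 lower in study 1. Of 8 MHC class II genes 6 were lower in study 2 (median −2.15), against 1 in study 1 (median −0.30), and 2 passed the test of the difference.

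**Figure D5:**
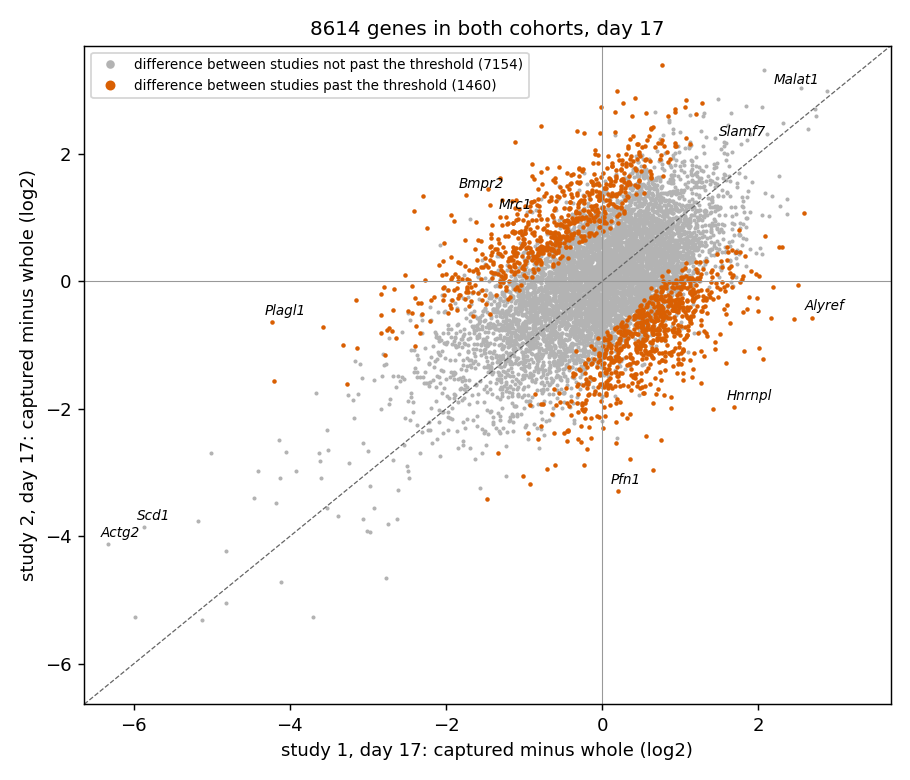
Captured minus whole at day 17, in log2, for each of 8614 genes in study 1 (horizontal axis) and study 2 (vertical axis), with the line of equal differences dashed. Genes past the threshold for a difference between the studies are orange (1460), and those not past it are grey (7154). Slamf7 and Malat1 lie at upper right in both cohorts, Actg2 and Scd1 at lower left, and Hnrnpl, Alyref and Pfn1 lie below the line.

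Within study 1, the captured minus whole difference of day 17 was also compared with the mean of those of days 7 and 33. No gene passed (0%, limma), and 49 of 8614 genes (0.569%) had an unadjusted p under 0.05. That is under the share of about 0.05 that no true difference would give. The lack of calls therefore does not show that day 17 matched days 7 and 33. With the groups of study 1 alone in the fit, 239 had an unadjusted p under 0.05, and again none passed. The pooled standard error of the fit (median 0.33 for the day 17 difference) was larger than the spread between specimens of day 17 (median SD 0.17 in captured cells and 0.14 in whole tissue). With the 6 specimen averages of day 17 alone, 2624 genes were higher and 2384 lower at the same threshold.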

How the data were processed

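The deposited values were log2 expression per probe set of an Affymetrix mouse array, deposited by the authors. The submitters' processing notes name RMA and Partek, with no version. Of 22690 probe sets, 20393 had 1 gene symbol, 691 several and 1606 none. All 82 arrays were quantile-normalized and arrays of 1 specimen number and tissue averaged, which gave 53 averages in 19 groups. For each gene the probe set with the highest mean was kept. Genes above the column median in at least 3 averages were tested: 8614 of 12393. limma 3.58.1 in R 4.3.3 (lmFit, eBayes) fitted all groups, with specimens as a random block (correlation 0.111), and p-values were adjusted by Benjamini-Hochberg at 0.05. Estimates with the block can differ slightly from differences of group means. Array data carry no read depth: the number of arrays limits the precision. The study and day contrasts came from the same fit. The method was tested on simulated data.

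Members and gene lists were chosen with earlier results of these data known. The genes named are the 8 largest increases and 8 largest decreases with specimens apart, up to 4 called genes of each list, a set list of plasma cell, sex and macrophage genes, the 5 largest in each direction of the interaction contrasts, and immunoglobulin genes past the threshold. Other members of lists were named to complete a count or to show a gene's level and were chosen after their values were seen. Alternatives changed the scaling, block, averaging, filter, probe set choice and samples. Promoters on chromosome 18 were left out of the motif search. Mzb1 and Ddx3y were not analysed here.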

Additional observations from a re-analysis of the deposited data

Results flagged for a closer look

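Among the 4 captured specimens, 8 of the 133 named genes had a specimen far from the other three by Dixon's test at the 95% level. That test picks out about 1 in 20 groups by chance, so the count is near what chance gives. Captured specimen 12 was the low one for Slamf7 (7.33, with 8.29 to 8.40 in the others), a kappa variable gene (5.66, with 6.69 to 6.87), and the high one for Lyve1 (6.38, with 5.19 to 5.35). It also met the test for Igha (14.47, with 14.57 in the others), but these are the 2 top levels of the scale, so the gap is one of ranks and says nothing about the specimen. Captured specimen 3 was low for Cd93 (8.04, with 8.49 to 8.57) and high for Myh11 (4.93, with 4.18 to 4.30). Captured specimen 4 was low for Mrpl47 (9.44, with 9.66 to 9.70) and Mxd3 (7.05, with 7.46 to 7.51).

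The captured minus whole difference of day 17 was set against that of study 2 in limma's fit, as study 1 minus study 2. It was higher in study 1 for 767 genes and lower for 693. Of the named genes past an adjusted p of 0.05, those higher in study 1 had log2 differences of Alyref 3.25, Coq10a 3.41, Dad1 0.97, Gar1 1.57, Hnrnpl 3.66, Igkv4-68 2.23, Il6ra 1.65, Mrpl33 1.51, Pet100 2.57, Pfn1 3.49, Ppan 1.85, Ppp1r15a 1.38, Rraga 3.62, Sdf2l1 2.40, Snd1 3.28 and Tyk2 1.24. Those lower in study 1 had A2m −3.30, Bmpr2 −3.09, Cd93 −2.29, Col6a3 −2.23, Cysltr1 −3.51, Ifit1 −3.64, a kappa variable gene −3.23, Il1b −1.998, Lum −2.34, Mmp2 −2.14, Plagl1 −3.59, Serping1 −1.94 and Xbp1 −0.89.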

How the results depend on the processing

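Counts are given as genes higher, then lower, in captured cells of study 1 unless named otherwise. Values as deposited gave 221 and 3701 (median gene −0.61, against 0.04 after quantile normalization), 39 and 7364 in study 2, and 4048 and 80 for the difference between studies. Centring each array on its median gave 1597 and 1186 (median gene 0.14), 2780 and 1350 in study 2, and 780 and 1096 between studies, so the split between directions depends on the scaling. The RNA measure as a covariate gave 687 and 979, and 764 and 1199 in study 2. The groups of study 1 alone gave 2012 and 1907, and the 6 averages alone 2624 and 2384. Some named genes that were not called gained a call in an alternative. These were 13 with the 6 averages alone, 5 with study 1 alone, 4 with deposited values and 3 with median centring. Myc (0.57), Cd68 (−1.09) and Il6 (−1.04) were among the 13. Without the replicate block the counts were 1245 and 1258, 1577 and 1492 in study 2, 680 and 599 between studies, and 3 of the 100 named genes that were called lost their call. Within day 17 of study 1 only specimen number 12 is in both tissues. Arrays not averaged gave 1122 and 1170. Leaving out 1 specimen gave 303 to 1167 and 328 to 1207, and 347 to 689 and 267 to 603 between studies. The difference between days stayed at 0 in the alternatives run. Without whole tissue specimen 12, 61 of the 100 called named genes lost their call, without specimen 10, 35, and with the covariate, 40; the cause was not tested.

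Among the 133 named genes, the only called one that changed sign was Zbtb20, at −0.018 with the mean of all probe sets. Of genes not called, the covariate turned Igha (−0.78), Igk-V21 (0.021), Igkv4-68 (0.10), Igkv8-30 (−0.083), Jchain (−0.39), Mki67 (−0.14), Pou2af1 (−0.23), Prdm1 (−0.047) and Xist (−0.053). Deposited values turned Ighm (0.0023), a kappa variable gene (−0.48), Igkv6-14 (−0.36), Pfn1 (−0.43), Prdm1 (−0.59), Rraga (−0.13) and Sdc1 (−0.11). Median centring turned Ighm (0.75) and Xbp1 (0.63), and the mean of probe sets Ighm (0.44) and Xbp1 (0.22). Leaving out 1 specimen turned the sign of 8 genes that were not called: Eif2s3y (−1.97 to 3.19), Ighg3 (−3.02 to 1.30), a kappa variable gene (−0.17 to 0.76), Igkv6-14 (−0.79 to 1.33), Ms4a1 (−0.47 to 0.24), Prdm1 (−0.074 to 0.40), Xbp1 (−0.094 to 0.074) and Xist (−1.38 to 4.20).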
